A study of Arabidopsis thaliana with 18 samples.

Results

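miR846 is a microRNA family of Arabidopsis thaliana that arises from 1 locus, MIR846, and is known for pairing with mRNAs of jacalin-related lectins. The family was described over 18 small RNA libraries from rosette leaves. Its members are all sequences listed under the family line mir846 in the deposited read table, which are 2 of 498 entries (476 distinct sequences in 101 families). They are the 5p and the 3p strand of a single hairpin. The family was chosen by its measured differences between Alternaria and control leaves, so its Alternaria values are given below as a description, without a test. The untreated and mock libraries were the other side of those differences. Tests that use only these libraries are therefore not wholly independent of the choice.

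All plants were wild-type Col-0, grown on soil in short days (8 h light, 22 °C) at high humidity for about 5 to 6 weeks. They were untreated, mock treated, or sprayed with Alternaria brassicicola strain MUCL 20297 at 1000000 spores per ml with 0.01% Silwet L 77, a wetting agent, and harvested on day 3. For the mock plants the labels used here state neither the spray nor the harvest day. Each treatment gave 3 biological replicates of total small RNA and 3 of small RNA recovered by immunoprecipitation of ARGONAUTE1 (AGO1). Small RNA tables hold no marker transcripts, so the labelled tissue could not be checked against markers.

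A microRNA is cut from a folded precursor by DICER-LIKE1 as a duplex, and as a rule 1 strand is kept in an ARGONAUTE protein while the other is degraded. AGO1 is the main plant ARGONAUTE for microRNAs. It favours strands that begin with U, and it cuts mRNAs that pair closely with the strand it holds. MIR846 and its neighbour MIR842 are known to be made from a common primary transcript whose splicing responds to abscisic acid, the hormone of drought and seed dormancy, and both are known to act on jacalin-related lectin mRNAs. Jacalin-related lectins are carbohydrate-binding proteins, several of which have roles in defence of Arabidopsis. Alternaria brassicicola is a necrotrophic leaf-spot fungus, which feeds on cells it has killed.

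The strands are shown because they differ at the first base, which bears on AGO1, and in the seed, bases 2 to 8, which is in capitals. Sequences are written 5′ to 3′ with T for U, as in the deposited table, and miR842, the neighbour from the same transcript, is placed below them.
miR846-5p: cATTCAAGgacttctattcag
miR846-3p: tTGAATTGaagtgcttgaatt
miR842: tCATGGTCagatccgtcatcc
All 3 are 21 nt long and equal the mature sequences of the RefSeq annotation. No other sequence in the deposited table had the seed of any of them. The 3p strand begins with T, and so does miR842, while the 5p strand begins with C. GC made up 28.6% of the 3p strand, 38.1% of the 5p strand and 52.4% of miR842.

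Each strand matched the genome once. On build TAIR10.1, the RefSeq copy of the authors' build, miR846-5p lies at chr1:22577426-22577446 and miR846-3p at chr1:22577662-22577682, both on the plus strand within MIR846 (AT1G61226, positions 22577375 to 22577733). MIR842 (AT1G61224) lies upstream on the same strand, with 109 bases between the annotated precursors. The next gene downstream, after 1217 bases, is AT1G61230, which is annotated as a mannose-binding lectin superfamily protein, the name RefSeq gives to many jacalin-related lectins. The 257 bases from the first of miR846-5p to the last of miR846-3p are shown to let the hairpin be seen, with both strands in capitals.
MIR846 foldback: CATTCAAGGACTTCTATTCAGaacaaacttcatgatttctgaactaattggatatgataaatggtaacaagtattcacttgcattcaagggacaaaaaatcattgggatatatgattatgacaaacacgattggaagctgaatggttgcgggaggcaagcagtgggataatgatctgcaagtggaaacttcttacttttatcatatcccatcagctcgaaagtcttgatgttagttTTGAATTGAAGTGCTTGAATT
Folded by RNAfold, this stretch had a minimum free energy of -89.5 kcal/mol. In that fold 18 of the 21 bases of the 5p strand paired with the 3p strand. Of the 215 bases between the strands, 144 were also paired in that fold.

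The 3p strand paired more closely with lectin transcripts than the 5p strand did. All annotated transcripts of 31455 genes were searched for the best site of each strand, with 1 point for a mismatch, 0.5 for a G:U pair and the points doubled at positions 2 to 13 of the microRNA, without bulges. At a score of 4 or less, miR846-3p had a site in 16 genes, 0.0509% of those searched, and 14 of the 16 were among the 42 genes annotated as jacalin or mannose-binding lectin superfamily. These 14 are 33.3% of the 42. All 8 genes at a score of 3 or less were of that annotation. miR846-5p had a site at a score of 4 or less in 2 genes, neither of them a lectin. The median best score of the 42 lectin genes was 6.25 for miR846-3p and 10.75 for miR846-5p, beside medians of 10.5 and 11 over all genes searched.

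The site with the lowest score, 2 of the 4 sites that scored 2.5 and both sites of a gene that pairs with both microRNAs are shown, with paired bases in capitals (G:U pairs included) and mismatched bases in lower case, as the mRNA reads.
AT1G61230 site of miR846-3p: cATTCAAGCACTTCAATTCAA
AT1G52110 site of miR846-3p: GATcCAAGCACTTCAATTTAA
AT5G49850 site of miR846-3p: GATTCAAaCACTTCAATTTAA
AT1G57570 site of miR846-3p: cATTCAAGgACTTCAATTCAA
AT1G57570 site of miR842: tGATGATGGATCcGACCATGA
The site with the lowest score, 1.0 with a single mismatch, was that of AT1G61230, the gene next to MIR846. It lies in the coding sequence at chr1:22579561-22579581 on the plus strand. Base by base, this site and the miR846-5p strand were identical at 18 of 21 positions. The sites of AT1G52110 (chr1:19388774-19388794, minus strand) and AT5G49850 (chr5:20261837-20261857, minus strand) scored 2.5 and also lie in coding sequence. Sites of miR842 at a score of 4 or less were found in 11 genes, of which 8 were among the 42 lectin genes. Of those 8, and of the 14 of miR846-3p, 4 were the same genes: AT1G52070, AT1G57570, AT5G28520 and AT5G38550. In AT1G57570 the site of miR846-3p (chr1:21322513-21322533) scored 3.0 and that of miR842 (chr1:21322191-21322211) scored 3.5, both in coding sequence on the plus strand. These matches describe sequence alone, and no mRNA level was measured in the tables used here.

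**Figure D1:**
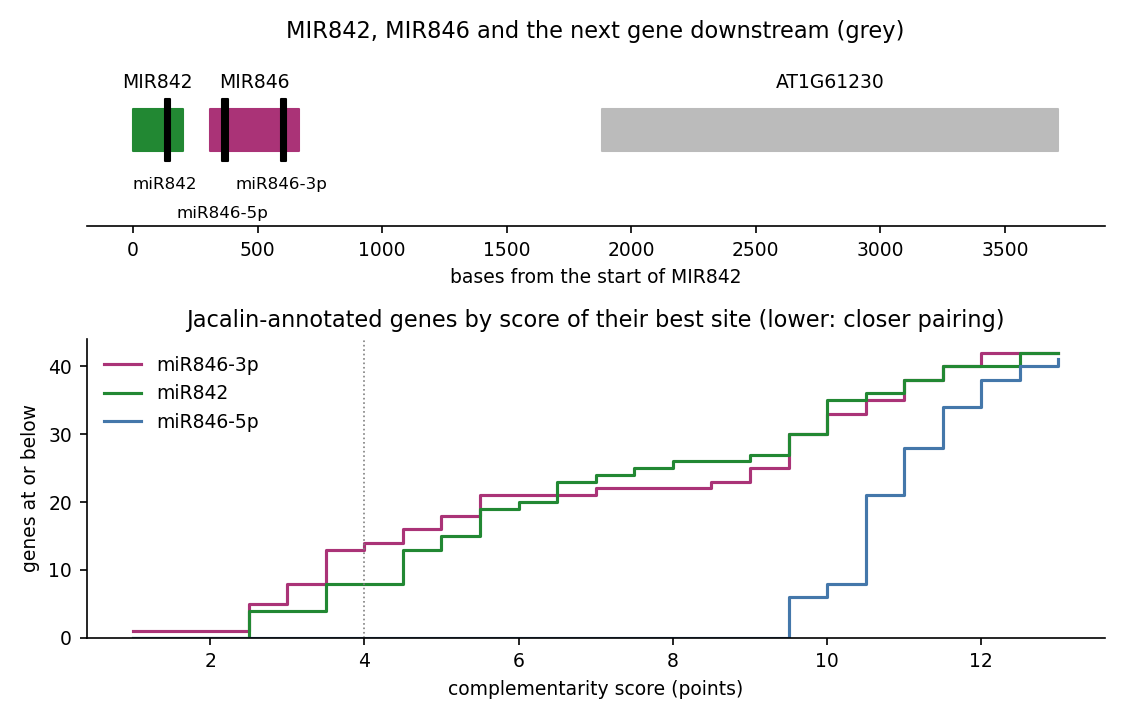
Top, the annotated precursors MIR842 and MIR846 and the next gene, AT1G61230, in bases from the start of MIR842, with the mature strands as black bars; the gap between the precursors is 109 bases. Bottom, the number of the 42 lectin-annotated genes whose best site scores at or below the value on the x axis (points, lower is closer pairing), with a dotted line at 4, where miR846-3p has 14, miR842 has 8 and miR846-5p has 0.

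In units of 1000000 listed miRNA reads, total libraries held 0.754 to 3.03 and AGO1 libraries 10.8 to 20.3, each the sum of 2 sequencing runs. Listed miRNAs made up 2.63 ± 0.114% of genome-matched reads in untreated, 8.54 ± 4.15% in mock and 9.56 ± 1.96% in Alternaria total libraries (mean ± SD, n = 3 each), and 77.8 to 83.4% in AGO1 libraries. The lowest value listed in any run was 15, so a sequence listed at 0 may have had up to 14 reads per run, or 28 per library. Levels are counts per 1000000 listed miRNA reads (CPM), scaled by trimmed-mean (TMM) factors within each library type unless stated otherwise. A level in leaf RNA cannot tell more microRNA per cell from more cells that hold it.

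miR846 was scarce in total small RNA, and every total library but 1 listed the 3p strand alone. In untreated leaves the family had 67, 16 and 43 reads in replicates 1, 2 and 3, which is 39.1, 22.2 and 48.6 CPM. As listed values start at 15, the 16 reads of replicate 2 came from 1 run. Up to 14 reads of the 3p strand may be unlisted in the other, so that level may be too low. Mock leaves had 146, 71 and 396 reads, or 98.0, 64.7 and 119 CPM. Every mock library thus lay above every untreated library. In leaves treated with Alternaria there were 164, 283 and 894 reads, or 118, 123 and 293 CPM. Replicate 3 stood well above the other 2 of its group, whose values lay next to the highest mock library. By mean CPM miR846 ranked 57 of 77 tested families in untreated, 51 in mock and 46 in Alternaria leaves.

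The mock treatment was compared with no treatment to see how the family differs without the fungus. In total small RNA the mean level was 36.6 ± 13.4 CPM in untreated and 93.8 ± 27.2 CPM in mock leaves (SD, n = 3 each). The log2 difference was 1.36 ± 0.56 (SE) with a 95% interval of 0.16 to 2.56. It did not pass the limma test with Benjamini-Hochberg adjustment over 77 families (adjusted p = 0.188, unadjusted p = 0.0292). In that comparison 4 families were lower (5.19%) and 0 were higher (0%), with 14 at an unadjusted p under 0.05, and limma-voom called 3 lower and 0 higher. The median log2 difference of all families was 0.21. Scaled to genome-matched reads, of which miRNAs took a smaller share in untreated leaves, the difference was 2.12 and passed (adjusted p = 0.00243), while the median of all families was 1.40 and 47 families were higher and 1 lower. It also passed with all 18 libraries fitted together (1.40, adjusted p = 0.0292; 5 families higher and 6 lower).

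In AGO1-bound small RNA miR846 ranked higher among the tested families than in total small RNA, and untreated and mock leaves were close. Untreated leaves had 1601, 2314 and 1850 reads, or 111, 117 and 116 CPM. Mock leaves had 1550, 1976 and 2208 reads, or 91.2, 99.0 and 156 CPM. These groups overlapped, with mock libraries on both sides of the untreated ones. Alternaria leaves had 3345, 2744 and 3174 reads, or 168, 255 and 230 CPM. On this scale each lay above every mock and untreated library. Without TMM factors, Alternaria replicate 1 (169.1 CPM) lay just below mock replicate 3 (169.9 CPM). With both library types scaled together, Alternaria replicate 1 (255 CPM) again lay below mock replicate 3 (264 CPM). The other Alternaria libraries lay above every mock and untreated library on both of these scales. By mean CPM the family ranked 31 of 79 tested families in untreated, 30 in mock and 24 in Alternaria leaves.

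Between mock (116 ± 35.5 CPM) and untreated leaves (115 ± 3.43 CPM; SD, n = 3 each) the AGO1-bound log2 difference was -0.03 ± 0.26, with a 95% interval of -0.57 to 0.51 (adjusted p = 0.981 by limma). No family passed in that comparison (0%), by limma or by limma-voom, and 5 of 79 had an unadjusted p under 0.05. The mock difference was thus 1.36 in total and -0.03 in AGO1-bound small RNA. In the fit of all 18 libraries, the AGO1-bound difference minus the total one was -1.51 ± 0.56, with a 95% interval of -2.69 to -0.32. This did not pass over 95 families (adjusted p = 0.182 by limma, unadjusted p = 0.0159), where 1 family was called higher (1.05%) and 0 lower (0%).

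**Figure D2:**
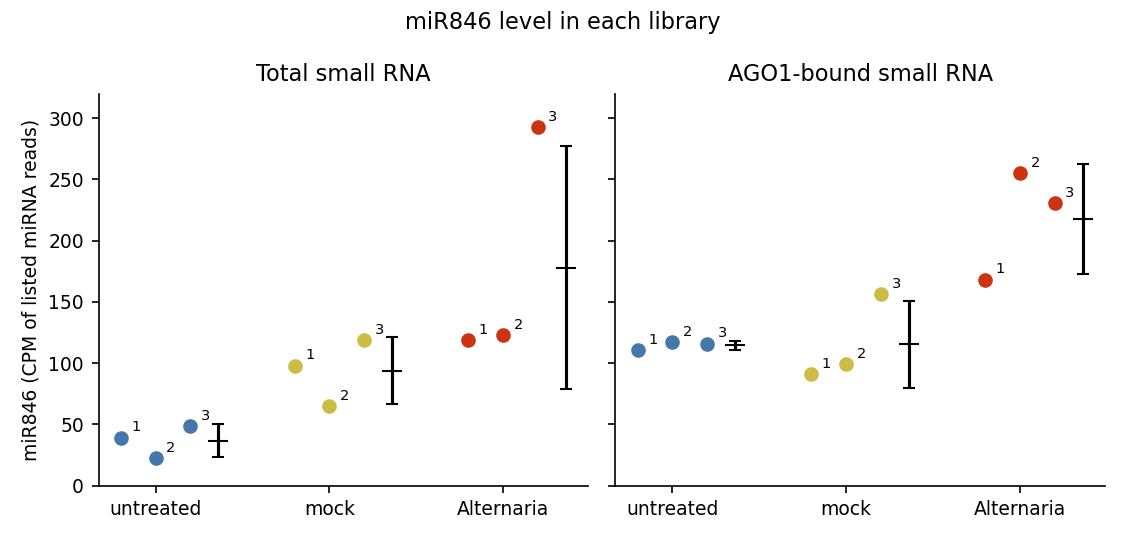
miR846 level in CPM of listed miRNA reads (y axis, linear from 0) in each library of total (left) and AGO1-bound (right) small RNA; points are libraries, numbered by replicate, and black bars are the mean ± SD of 3. Total libraries run from 22.2 to 293 CPM, and the 3 Alternaria AGO1 libraries, at 168 to 255 CPM, lie above the other 6. That separation is not complete without TMM factors or with both types scaled together. The types were scaled apart, so heights are compared within a panel.

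The values that led to the choice of the family are as follows. In total small RNA the Alternaria mean was 178 ± 99.3 CPM (SD, n = 3), with log2 differences of 0.83 ± 0.56 from mock and 2.19 ± 0.56 from untreated leaves. Without Alternaria total replicate 3 the difference from mock was 0.40 and that from untreated leaves 1.76. The lowest Alternaria library lay within the range of the mock libraries and above the untreated ones. In AGO1-bound small RNA the mean was 218 ± 44.7 CPM (SD, n = 3), with log2 differences of 0.93 ± 0.26 from mock and 0.90 ± 0.26 from untreated leaves. Leaving out any 1 library moved the AGO1-bound difference from mock between 0.62 and 1.10, with the lowest value without mock replicate 1. The Alternaria against mock difference was 0.16 ± 0.56 larger in AGO1-bound than in total small RNA in the joint fit, and its sign turned with library totals (-0.03), genome-matched scaling (-0.20) and run 2 only (-0.09). Leaving out 1 library moved it between -0.08 and 0.52. In total small RNA, 3.9% of 77 families were called higher and 2.6% lower after Alternaria against mock, and 15.6% higher and 9.09% lower against untreated leaves. In AGO1-bound small RNA, 5.06% of 79 were higher and 0% lower against mock, and 7.59% higher and 1.27% lower against untreated leaves. The contrasts with mock and with untreated share the Alternaria libraries.

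**Figure D3:**
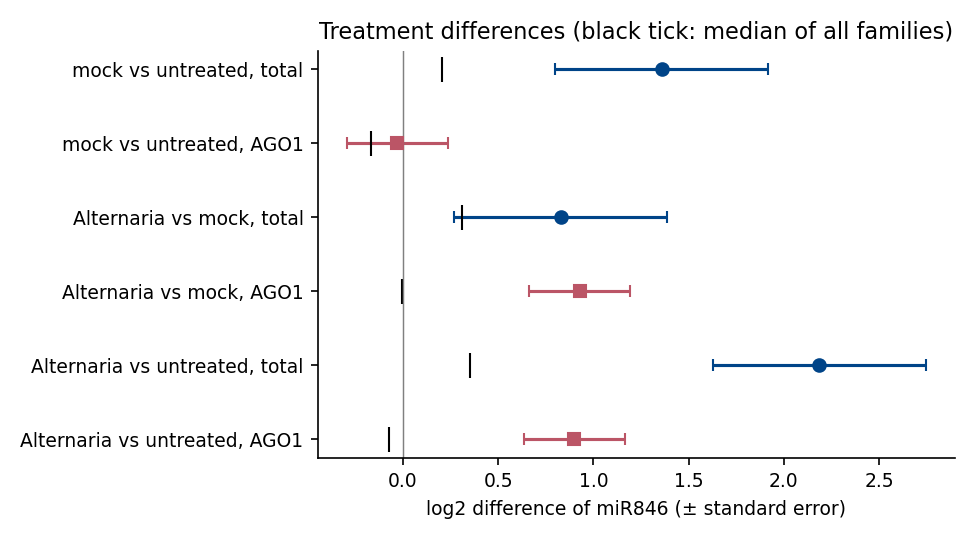
Log2 difference of miR846 (x axis) for each treatment comparison in total (circles) and AGO1-bound (squares) small RNA, with the standard error as bars and the median of all tested families as a black tick. The mock difference is 1.36 in total and -0.03 in AGO1-bound small RNA; the Alternaria values are those known when the family was chosen.

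Scaled by TMM factors, miR846 was higher in AGO1-bound than in total small RNA in untreated and mock leaves. In that scaling of all 18 libraries, untreated leaves had 185 ± 22.9 CPM in AGO1-bound and 26.4 ± 12.9 CPM in total small RNA, mock leaves 179 ± 73.4 and 67.2 ± 19.3 CPM, and Alternaria leaves 289 ± 29.5 and 106 ± 49.4 CPM (SD, n = 3 each). On this scale the AGO1-bound libraries did not overlap the total libraries of the same treatment. Per 1000000 listed reads, without TMM factors, they overlapped in mock leaves (84.0, 136 and 170 against 103, 60.9 and 131) and in Alternaria leaves (169, 253 and 197 against 97.2, 132 and 297), but not in untreated leaves (86.3, 114 and 130.0 against 36.7, 21.2 and 55.5). The log2 difference was 2.88 ± 0.39 in untreated leaves (adjusted p = 5.63e-06 by limma), which is 7.35-fold on the scale of CPM + 1. In mock leaves it was 1.37 ± 0.39 (adjusted p = 0.00591 by limma). In Alternaria leaves it was 1.53 ± 0.39 and in the mean of the 3 treatments 1.92 ± 0.23, given without a test because the Alternaria libraries had a part in the choice of the family. The untreated and mock libraries had a part in it too, as the controls, so their tests are not wholly independent of it. A rise in AGO1-bound small RNA was common: 41.1% of 95 families were higher and 44.2% lower in the mean, with 37.9% higher and 34.7% lower in untreated, 32.6% and 35.8% in mock, and 29.5% and 37.9% in Alternaria leaves. Of the 95 families, 75.8% had a mean difference at or below that of miR846.

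The size of this difference depended on the scale. The mean difference of miR846 was 1.92 with TMM factors, 2.75 with median-of-ratios factors, 0.80 with library totals alone and 4.14 scaled to genome-matched reads, beside medians of all families of -0.04, 0.78, -1.18 and 1.18. Relative to the median family it was 1.97, 1.96, 1.97 and 2.96 in the same order. The families called higher and lower were 39 and 42, 48 and 40, 30 and 56, and 61 and 29. With library totals alone the difference was 1.60 in untreated leaves, did not pass in mock leaves (0.41, adjusted p = 0.416 by limma) and was 0.38 in Alternaria leaves. Total and AGO1-bound libraries were made by different protocols, so the protocol and AGO1 binding cannot be told apart.

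**Figure D4:**
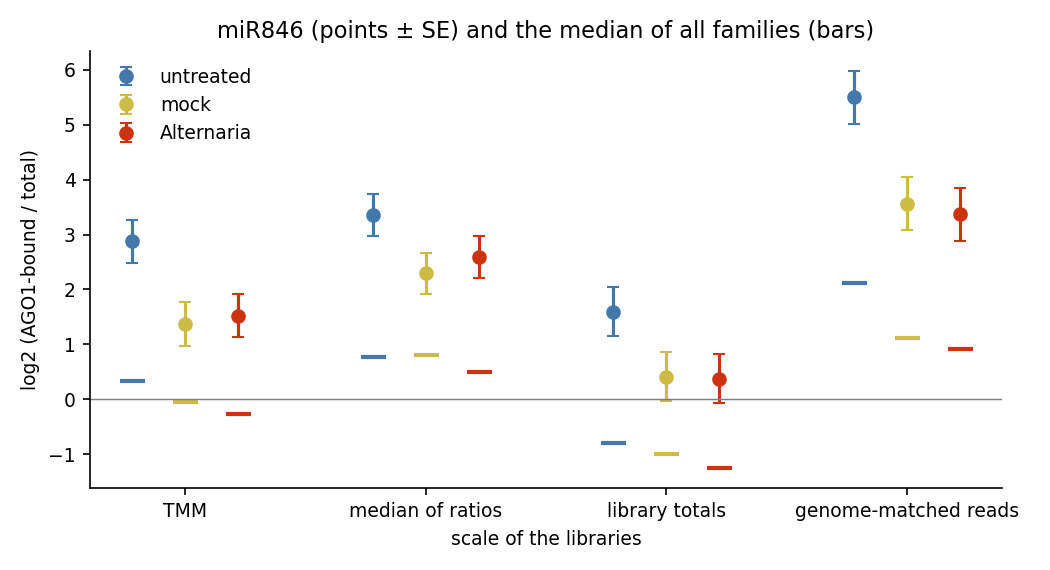
Log2 of AGO1-bound over total small RNA (y axis) under 4 scales of the libraries (x axis), for miR846 (points, with the standard error) and for the median of all tested families (horizontal bars), by treatment in colour. miR846 lies above the median family in each treatment and scale, and its mean over treatments runs from 0.80 with library totals to 4.14 with genome-matched reads.

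The 3p strand, which pairs with the lectin sites shown above and begins with T, made up nearly all reads of the family. Over the 9 AGO1 libraries it had 20208 reads and the 5p strand 554, which is 2.67% of the family. The 5p strand had 52, 134 and 41 reads in untreated, 41, 77 and 60 in mock and 41, 51 and 57 in Alternaria AGO1 libraries. As a share of the family these are 3.25%, 5.79% and 2.22% in untreated leaves, 2.65%, 3.90% and 2.72% in mock leaves and 1.23%, 1.86% and 1.80% in Alternaria leaves. The 95% Wilson intervals, which cover counting error only, ran from 4.91 to 6.82% for the highest library and from 0.905 to 1.66% for the lowest. Mock and untreated leaves overlapped (difference -0.67 percentage points, exact two-sided permutation p = 0.7, where 3 against 3 cannot go below 0.1). All 3 Alternaria shares lay below all others, with means of 1.63 ± 0.349% against 3.09 ± 0.703% in mock and 3.75 ± 1.84% in untreated leaves (SD, n = 3 each). The 3p reads that chose the family stand in the denominator of this share, so no test is given for it.

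By level, the 5p strand did not separate the treatments. It stood at 3.59, 6.78 and 2.57 CPM in untreated, 2.41, 3.86 and 4.25 CPM in mock and 2.06, 4.73 and 4.14 CPM in Alternaria AGO1 libraries, with all 3 groups overlapping. The 3p strand stood at 107, 110 and 113 CPM, 88.8, 95.2 and 152 CPM, and 166.1, 250.0 and 226.3 CPM in the same order. Fitted by itself over all sequences, each strand had a log2 difference between mock and untreated AGO1 libraries near 0, -0.04 ± 0.42 for 5p (adjusted p = 0.987 by limma) and 0.16 ± 0.29 for 3p (adjusted p = 0.976). The Alternaria values against mock were -0.06 ± 0.42 for 5p and 0.86 ± 0.29 for 3p, as a description.

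In total small RNA the 5p strand was listed in 1 of 9 libraries, Alternaria replicate 3, with 42 reads beside 852 of the 3p strand (4.70% of the family, Wilson interval 3.49 to 6.29%). The other 8 listed it at 0. In the scaling of all 18 libraries, the listing limit allows 6.21 to 25.5 CPM in those 8, while the AGO1 libraries held 3.13 to 11.4 CPM, with a median of 5.55. In 5 of the 8 the limit lay above every AGO1 library, so a level like that of AGO1 was not detectable there. In the other 3 it lay below the highest AGO1 library and above the AGO1 median. Taken as listed, the 3p share was 2.30 percentage points lower in AGO1-bound than in total libraries. With each 0 set to the listing limit the 3p share was 19.01 points higher, so no direction can be read. No test is given for this share, because the listing limit fixes it at 100% in the 8 total libraries with 5p at 0. The Alternaria reads that chose the family also enter it. All reads of the family, 100%, were 21 nt long in every library.

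**Figure D5:**
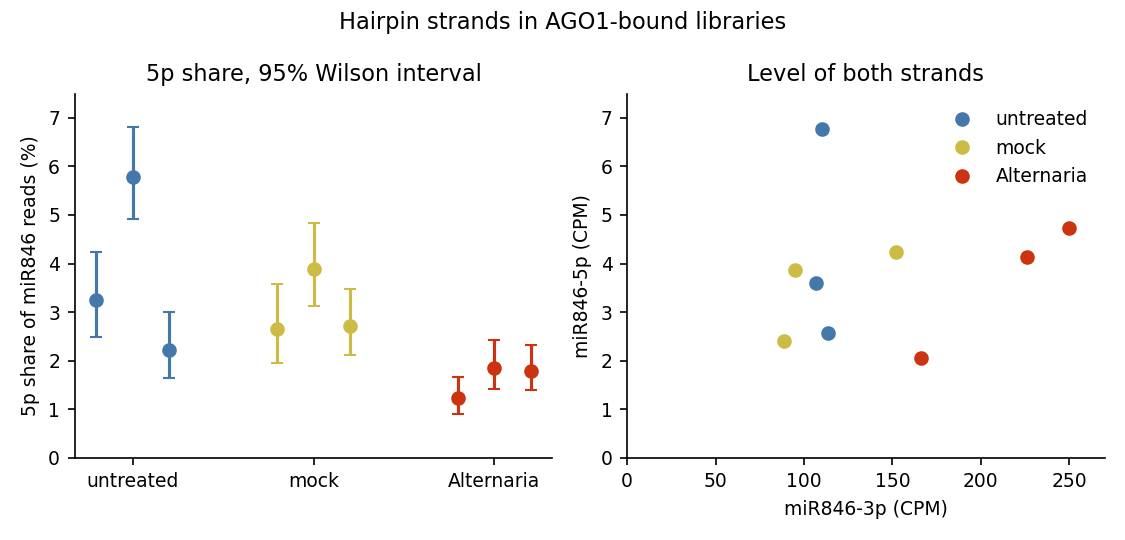
Left, share of miR846 reads from the 5p strand (percent) in each AGO1-bound library, with 95% Wilson intervals, by treatment; Alternaria libraries lie at 1.23 to 1.86% and the others at 2.22 to 5.79%. Right, level of the 5p strand against that of the 3p strand in CPM in the same libraries; the 5p levels of the 3 treatments overlap.

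miR842 was far scarcer than its neighbour. It had 246 reads over all libraries, against 22246 of miR846-3p and 596 of miR846-5p. All 9 total libraries listed it at 0. In the scaling of all 18 libraries the listing limit allows 6.21 to 25.5 CPM in 8 of them. Every AGO1 level of miR842 lay below that, at 4.52 CPM or less. In the remaining library, Alternaria replicate 3, 42 reads of miR846-5p stood at 7.65 CPM, so the limit of 28 reads lay above 4.52 CPM. miR842 at a level like that of AGO1 was thus not detectable in any total library. In AGO1 libraries it had 0, 53 and 15 reads in untreated, 44, 0 and 20 in mock and 57, 36 and 21 in Alternaria leaves, or 0, 2.68 and 0.94 CPM, 2.59, 0 and 1.42 CPM, and 2.87, 3.34 and 1.52 CPM. It was listed in all 3 Alternaria libraries and in 2 of 3 of each other group, and the groups overlapped. A 0 allows up to 28 reads, more than the 15, 20 and 21 listed elsewhere, and the tests took it as 0. No difference passed limma: mock against untreated 0.09 ± 0.62 (adjusted p = 0.981), Alternaria against mock 0.76 ± 0.62 (adjusted p = 0.569) and Alternaria against untreated 0.86 ± 0.62 (adjusted p = 0.418).

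Of 7 families known for a link to abscisic acid or its responses, 5 were tested in total and all 7 in AGO1-bound small RNA. The list holds miR159 (MYB factors of the hormone's signalling), miR168 (AGO1 itself), miR169 (NF-YA factors), miR393 (auxin receptors), miR394 (whose reads are also listed as miR384), miR402 and miR842. In total small RNA miR169 fell with Alternaria, by 1.32 on the log2 scale against mock (adjusted p = 0.00674 by limma) and by 2.56 against untreated leaves (adjusted p = 5.02e-06), and it also fell by 1.24 in mock against untreated leaves (adjusted p = 0.012). miR393 rose by 1.36 against untreated leaves (adjusted p = 0.00951). Of the 5 members tested there, 0 rose and 1 fell with Alternaria against mock, and 1 rose and 1 fell against untreated leaves. Over all 77 families 3.9% rose and 2.6% fell against mock, and 15.6% and 9.09% against untreated leaves, so counts this small set the list apart in neither comparison. The median of the list was 0.24 against mock and 0.51 against untreated leaves, beside medians of 0.31 and 0.35 for all families. The remaining values against mock were 0.50 for miR159, 0.24 for miR168, 0.68 for miR393 and -0.81 for miR394, which did not pass, and against untreated leaves 0.51, 0.57 and -0.86 for miR159, miR168 and miR394.

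In AGO1-bound small RNA none of the 7 passed limma in any treatment comparison, where 0% to 7.59% of all 79 families were higher and 0% to 1.27% lower. Against mock, Alternaria values were -0.01 for miR159, 0.38 for miR168, -0.52 for miR169, -0.01 for miR393, -0.0036 for miR394, -0.32 for miR402 and 0.76 for miR842. Against untreated leaves they were 0.02, 0.38, -0.49, 0.28, -0.30, -0.37 and 0.86 in that order. The list medians were -0.01 and 0.02, beside -0.0036 and -0.07 for all families.

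The families with profiles most like that of miR846 were found by the root mean square difference of log2(CPM + 1) over 9 libraries, after subtracting each family's mean. Points of this measure share library and depth. In total small RNA they were miR2111 (0.61), miR393 (0.64) and miR863 (0.66), where the median of 76 other families was 1.25 and the profile of miR846 had a root mean square of 1.02. miR2111, a phosphate-starvation miRNA, stood at 71.1 ± 18.2 CPM in untreated, 142 ± 15.1 in mock and 176 ± 18.2 in Alternaria leaves (SD, n = 3 each). miR393 stood at 239 ± 44.7, 389.9 ± 104 and 656 ± 277 CPM, and miR863 at 281 ± 100.0, 334 ± 134 and 529 ± 138 CPM in the same order.

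In AGO1-bound small RNA the most like profiles were those of miR6478 (0.26), miR399 (0.30) and miR157 (0.31), where the median of 78 others was 0.67 and the profile of miR846 had 0.50. miR399, a regulator of phosphate transport, stood at 147 ± 41.1 CPM in untreated, 200.1 ± 81.6 in mock and 348 ± 72.9 in Alternaria leaves (SD, n = 3 each). miR6478 stood at 13.2 ± 2.15, 15.6 ± 1.64 and 24.7 ± 3.77 CPM, and miR157, which targets SPL transcription factors and shares sequences with miR156, at 31354 ± 2388, 31380.2 ± 3405 and 42569 ± 7274 CPM. No family was among the 3 most like in both library types.

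The authors' deposited tables gave miR846 an AGO1 over total log2 ratio of 3.31 in untreated (the authors' adjusted p = 0.000689), 2.29 in mock (adjusted p = 0.00914) and 2.16 in Alternaria leaves. The Alternaria ratio is given without a test, for the reason above. For mock against untreated AGO1 libraries the authors' deposited table gave 0.10 (adjusted p = 1). For total libraries of mock and untreated leaves, the authors' deposited table gave a ratio of -1.34 (the authors' adjusted p = 0.959). Over 72 families the ratios of that table ran opposite to the log2 ratios of the read numbers (r = -0.998 across families), while the other 8 tables ran the same way (r of 0.966 or more). Of these, the tables of Alternaria against mock and against untreated AGO1 libraries rest on only 4 and 6 families. Only the size of the ratio of -1.34, not its sign, was therefore compared with the value of 1.36 fitted here. The authors gave no miR846 ratio for Alternaria against mock AGO1 libraries. Their other Alternaria ratios are likewise given without a test. In total libraries these were 0.82 against mock and 2.18 against untreated leaves, and in AGO1 libraries 0.97 against untreated leaves.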

How the data were processed

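Small RNA reads were trimmed with cutadapt after FastQC and matched to known miRNAs with no mismatch allowed, per the submitters' processing notes and the file headers, on build TAIR10. The deposited table lists whole read numbers per sequence and run among family-name lines, so its unit was recorded as other; listed values start at 15. The authors also deposited tables of comparisons, from which a log2 ratio and an adjusted p-value were copied and entered no test (DESeq 1.2 and DESeq2 are named in the processing notes); 72 columns of values were not used.

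The 2 runs of a library were summed (18 libraries, 6 groups of 3). They were taken as repeats of 1 library. Chi-square per degree of freedom between them was 0.885 to 1.17 in total libraries, near counting error. In AGO1 libraries it was 1.94 to 3.14, so those runs differed by more than counting error. Family reads were scaled to counts per 1000000 listed miRNA reads. A sequence with several entries added its reads to that library total only once. Trimmed-mean factors (TMM, trimming 0.3 of ratios and 0.05 of abundances) were applied after a filter of about 10 reads at median depth and 15 in total. Differences were tested on log2(CPM + 1) with limma (version 3.58.1, R 4.3.3; trended, robust moderation). P-values were adjusted by Benjamini-Hochberg over every family tested, at 0.05, and the fit was tested on simulated data. Total and AGO1 libraries were fitted apart (9 each) for treatments and together (18) for AGO1 against total. Strand shares were compared by exact permutation (Python 3.11.15, scipy 1.17.1), and the hairpin was folded with RNAfold 2.7.2. The difference of the mock effect between library types was added after the data were seen.

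The genome was the RefSeq copy TAIR10.1, on which 46 of 50 sequences checked, those of miR846 and miR842 among them, had as many matches as the deposited table gives. The family, the list and the tests were chosen with earlier results of these data known. Named families were both strands, miR842, the abscisic acid list and the 3 most like profiles per library type. Alternatives were other scalings, pseudocounts, filters, limma-voom, single runs, zeros at the listing limit, a replicate block and leaving out each library. Wilson intervals cover counting error only; intervals of log2 differences are limma's and rest on the spread between libraries.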

Additional observations from a re-analysis of the deposited data

How the results depend on the processing

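The call of AGO1 over total in untreated leaves held under all 31 alternatives tried, leaving out each library included (2.47 to 3.21 without any 1). In mock leaves it ended with library totals alone (0.41, adjusted p = 0.416 by limma) and with run 2 only (1.77, adjusted p = 0.118), where the cause was not tested, and held without any 1 library (1.17 to 1.93). The Alternaria value, described without a test, was 0.38 and 1.68 under the same settings and 1.26 to 1.99 without any 1 library. The total mock difference from untreated leaves passed with genome-matched scaling (2.12) and with all 18 libraries (1.40), as given above; it did not pass with zeros at the listing limit (0.90, adjusted p = 0.189) or run 2 only (2.65) and ran from 0.95 to 1.60 without any 1 library. The AGO1-bound mock difference, -0.03, turned positive with median-of-ratios factors (0.095), library totals (0.20), genome-matched scaling (0.19), run 2 only (0.0096), zeros at the listing limit (0.18) and the 3p sequence by itself (0.16), passed under none, and ran from -0.19 to 0.34 without any 1 library. The difference of the mock effect between library types passed with genome-matched scaling (-1.94, adjusted p = 0.0326) and ran from -1.84 to -1.07 without any 1 library. Alternaria against untreated moved in total libraries with genome-matched scaling (3.02) and run 2 only (3.63), ran from 1.52 (without untreated replicate 2) to 2.41 without any 1 library, and moved in AGO1 libraries with all 18 fitted together (0.64). The 3p share, equal here to the share of the most abundant sequence, was -2.30 points in AGO1 against total and 19.01 with zeros at the listing limit; the share of 21 nt sequences is 100% throughout and has no test. With the replicate number as a block no call changed (mock against untreated, total 1.36, adjusted p = 0.118; AGO1 over total, mock 1.37, adjusted p = 0.00216). Same-numbered libraries correlated over 0.1 in 2 of 9 pairs in total (highest r = 0.43) and in 2 of 9 in AGO1 libraries (highest r = 0.15). Differently numbered ones did so in 7 of 18 and 5 of 18 pairs. Such counts cannot exclude a pairing by number. The block lowered the SE of the total mock difference from 0.56 to 0.46. With as few as 16 reads in a library, total levels are the least precise.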
